A study of Rattus norvegicus with 6 samples.

Results

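The G protein-coupled receptors for noradrenaline, acetylcholine, dopamine, glutamate, serotonin and the opioid peptides were examined in rat spinal cord with a chronic contusion injury. A probe set, the group of array probes that gives 1 value for a transcript, was taken as a member if the array's annotation gave it 1 gene whose symbol belongs to the adrenergic (Adra, Adrb), muscarinic (Chrm), dopamine (Drd), metabotropic glutamate (Grm), serotonin (Htr other than the channel-forming type 3) or opioid (Oprd, Oprk, Oprm) receptors. This gave 61 of the 8799 probe sets in the table, for 40 of 4736 singly annotated genes. According to the labels, 3 arrays held total RNA from the epicenter of a contusion of the rat spinal cord at day 35, and 3 arrays held RNA from the same position, about thoracic segment 8, of uninjured animals. A contusion bruises the cord with a blunt impact, and its epicenter is where the blow landed. The labels name no strain, sex, age or sham operation, so surgery and elapsed time cannot be told apart from the contusion. Nor do they state whether different arrays stand for different animals, so the p-values reflect array-to-array spread alone, some of which may be technical.

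Receptors of this class cross the membrane of the cell with a bundle of helices and pass their signal to a G protein inside. Members that couple to Gq activate phospholipase C and tend to excite, members that couple to Gs raise cyclic AMP, and members that couple to Gi lower cyclic AMP, open potassium channels and tend to inhibit. In the spinal cord, noradrenaline and serotonin arrive in fibres that descend from the brainstem and set the excitability of motor neurons and the passage of pain signals, while opioid peptides, acetylcholine and glutamate are also released by neurons of the cord itself.

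Median signals of the 6 arrays ran from 122 to 127, and log2 signals correlated at 0.958 to 0.977 within a group and at 0.91 to 0.932 between the groups. Markers of several cell types differed between the groups. Of 12 tested neuron markers, 12 were lower after contusion (median log2 change -1.05), and the summed signal of the list was 8674 to 9262 on contused arrays against 17407 to 20275 on uninjured arrays. Nefl and Nefm, the light and medium neurofilament chains, had log2 changes of -0.90 and -0.84. Of 13 markers of microglia and macrophages, 12 were higher (median 1.36), with a summed signal of 11423 to 12032 after contusion against 3841 to 4767 in uninjured cord. Fcgr2b and Itgam among them were tested only because their contused arrays exceeded the floor described below, which fixed their direction. The lysosomal protease gene Ctss and the lysozyme gene Lyz2 had log2 changes of 0.75 and 1.75. Of 9 astrocyte markers 2 were higher and 0 lower, with sums of 12093 to 13255 after contusion against 11897 to 12708 in uninjured cord (Aldoc -0.12 and S100b -0.06, neither past the threshold). Of 7 myelin markers 3 were lower, with sums of 12945 to 13967 after contusion against 15349 to 16259 in uninjured cord (Mbp 0.00 and Cnp -0.12, neither past the threshold). Of 6 fibroblast markers 2 were higher, with sums of 4916 to 6248 after contusion against 1683 to 4194 in uninjured cord (Dcn 0.44 and Col1a1 0.58, neither past the threshold). Of 5 tested lymphocyte markers 1 was higher, Cd4 (log2 change 0.97, limma adjusted p = 0.00259), a gene that rat macrophages also express. The median was 0.17, and Il2ra and Lck were at -0.10 and -0.11 without passing. The lymphocyte sums, 897 to 1012 after contusion against 783 to 896 in uninjured cord, were only just apart. Their means were 941 and 848, beside means of 162 and 82.1 for Cd4 alone. In limma, 0 of 7 endothelial and mural markers passed (0 at an unadjusted p of 0.05), with Tagln at -0.30 and Acta2 at -0.24 and sums of 1247 to 1342 after contusion against 1253 to 1527 in uninjured cord. Likewise 0 of 4 Schwann cell markers passed (2 higher at an unadjusted p of 0.05), with Pmp22 at 0.40 and Ngfr at 0.31 and a median of 0.35. Their sums did not overlap, at 3899 to 4931 after contusion against 3137 to 3403 in uninjured cord. Named with their values known, the markers that passed in the shorter lists were Fabp7 (0.65) and Gja1 (0.66) of the astrocyte list, Mog (-0.87), Ugt8 (-0.97) and Mobp (-0.58) of the myelin list, Col1a2 (1.04) and Col3a1 (1.68) of the fibroblast list and Cd4. The 1 microglia and macrophage marker that did not pass was Csf1r (-0.33). The neuron marker Syt1 and the T cell marker Cd3g lay at the floor on all arrays. In bulk tissue, fewer cells of a type and less RNA per cell cannot be told apart, and the part of these shifts in the receptor values was not tested.

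Few of the receptor probe sets passed the threshold. Signals under 61.6, the 25th percentile of all values, were set to that floor, and testing required 3 or more of the 6 arrays above the floor. This left 47 of the 61 receptor probe sets, for 36 of the 40 genes, and 42 of them were above the floor on all 6 arrays. With limma and Benjamini-Hochberg adjustment over all 6705 probe sets tested, 3 of the 47 passed an adjusted p of 0.05, 0 higher and 3 lower after contusion, or 6.38%. Of all probe sets tested 17.4% passed, 7.79% higher and 9.59% lower, and among the 6019 probe sets within the signal range of the tested receptors 16.1% passed. That range, 63.5 to 854, holds most of the tested probe sets and does not match the receptors for signal. Tested receptors had median signals of 115 after contusion and 129 in uninjured cord, against 172 and 175 over all tested probe sets. The receptors' share was below the background, a difference that was not tested. By unadjusted p under 0.05, 4 receptor probe sets were higher and 8 were lower (25.5%, against 30.3% of the whole table). The arrays of the groups did not overlap for 13 of the 47, with 5 above and 8 below (27.7%), against a background of 34.8%. The median log2 change was -0.02 over the receptors and -0.01 over all tested probe sets, and 23 receptor probe sets had a positive and 24 a negative change.

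With dim values at the floor, 0 of the 47 fitted changes exceeded 2-fold, against 4.43% of the whole table. For Adra1b, whose contused arrays all lie at the floor, the fitted change is only a bound, and with the floor at a signal of 16 it was -0.94. The 95% intervals of the log2 change had a median half-width of 0.349. They lay within a 2-fold change in either direction for 44 of the 47 (93.6%, against 87% of the whole table), and for 40 of the 42 that were above the floor on all arrays. The exceptions were Adra1b (-1.05 to -0.35), a probe set of Drd3 (-0.08 to 1.01) and a probe set of Oprm1 (-1.16 to -0.07). Setting dim values to the floor narrows such intervals, and probe sets with 1 or more arrays at the floor are named as such where they appear.

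**Figure D1:**
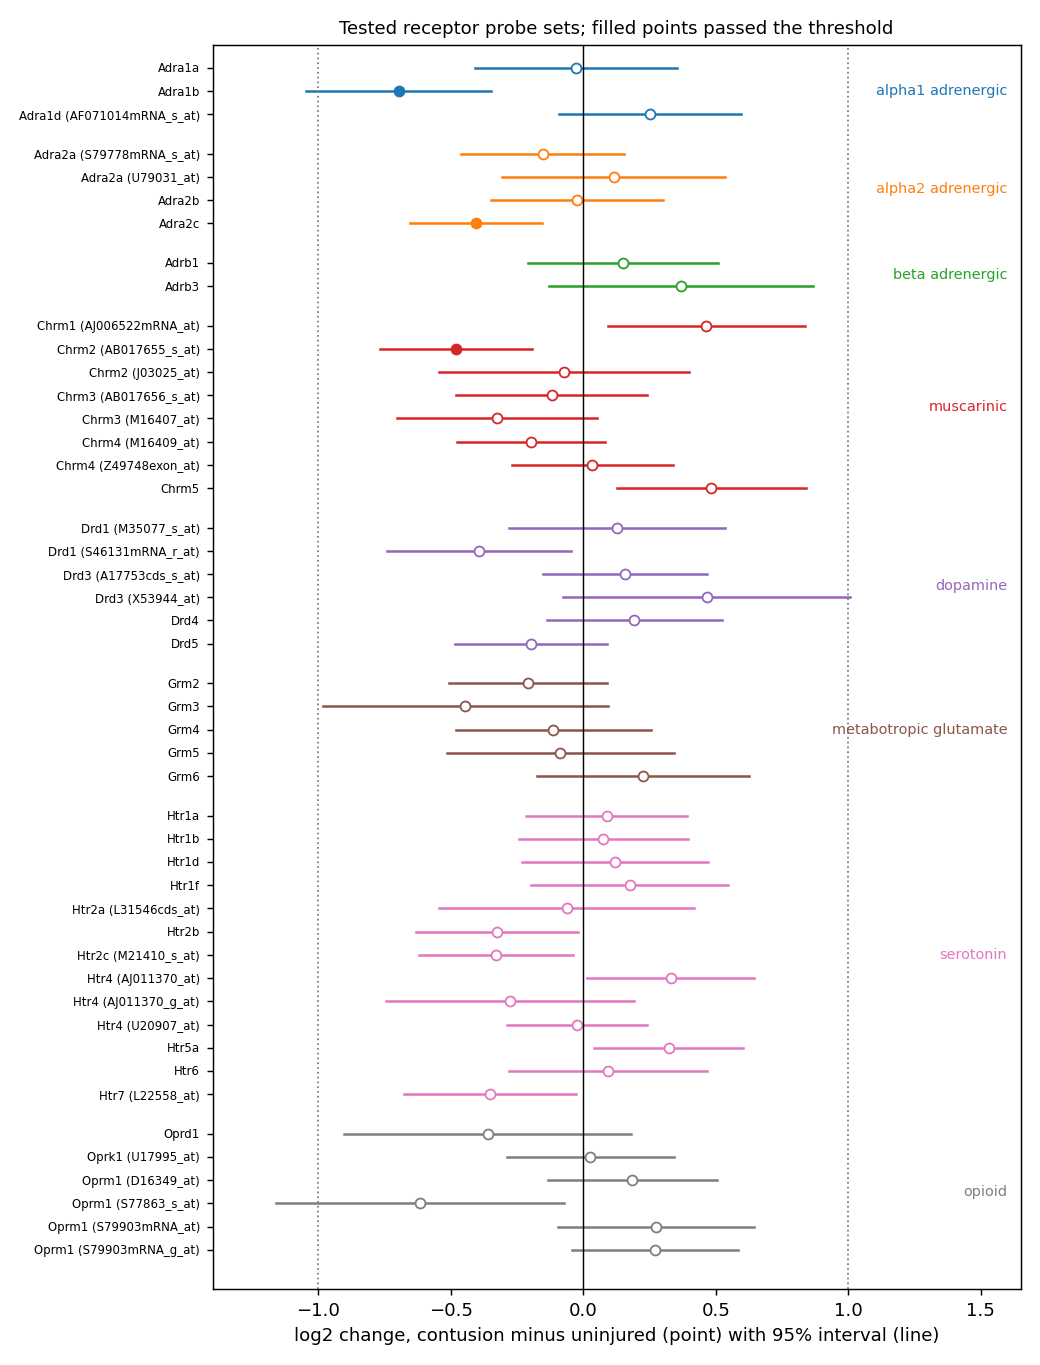
Log2 change (contusion minus uninjured, n = 3 arrays each) of the 47 tested receptor probe sets, with the 95% interval from limma as a line, ordered and coloured by receptor family. Filled points passed an adjusted p of 0.05, dotted lines mark a 2-fold change, and probe set names are added where a gene has more than 1. The 3 filled points, Adra1b, Adra2c and a probe set of Chrm2, lie left of 0.

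The 3 receptor probe sets that passed, all lower, belong to Adra1b, Adra2c and Chrm2. Chrm2 passed on 1 of its 2 probe sets, and the brighter one, J03025_at, did not pass (-0.07). Adra2c passed in only 4 of 11 alternatives. The 250 bases before the transcription start of each of these genes are given from RefSeq (GRCr8), 5′ to 3′ on the strand of the gene. Matches to the GC box GGGCGG (either strand) are in capitals, and shared regulation of the genes was not tested. The stretch of Adra1b is chr10:28814348-28814597 (minus strand), that of Adra2c is chr14:79697477-79697726 (minus strand) and that of Chrm2 is chr4:65982200-65982449 (plus strand).
Adra1b: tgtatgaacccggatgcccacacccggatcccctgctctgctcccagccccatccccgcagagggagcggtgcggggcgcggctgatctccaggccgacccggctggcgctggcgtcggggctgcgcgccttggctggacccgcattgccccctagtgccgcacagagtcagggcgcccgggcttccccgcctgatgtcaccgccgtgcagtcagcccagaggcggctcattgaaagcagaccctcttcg
Adra2c: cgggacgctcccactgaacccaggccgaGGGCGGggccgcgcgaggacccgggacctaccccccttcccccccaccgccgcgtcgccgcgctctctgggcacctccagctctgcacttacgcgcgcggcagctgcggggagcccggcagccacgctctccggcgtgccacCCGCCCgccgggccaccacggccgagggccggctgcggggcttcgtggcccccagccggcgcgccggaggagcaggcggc
Chrm2: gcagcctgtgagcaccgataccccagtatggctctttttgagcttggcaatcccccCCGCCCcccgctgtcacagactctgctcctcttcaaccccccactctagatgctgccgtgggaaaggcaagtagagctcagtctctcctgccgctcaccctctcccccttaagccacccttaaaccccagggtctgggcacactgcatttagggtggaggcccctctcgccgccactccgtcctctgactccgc
These stretches hold 0, 2 and 1 GC boxes, and 70.8%, 80.4% and 62% of their bases are G or C. Such a sequence was at hand for 30 of the 40 receptor genes, with a median GC content of 61%, against 52% over 27457 genes. A GC box was present in 12 of the 30 (40%) and in 32.4% of all stretches. The TATA box letters TATAAA were in 0 of the 30 against 13.1% of all, the cyclic AMP response element TGACGTCA in 0 against 1.7%, and the CCAAT box in 7 (23.3%) against 34.3%. The letters TTCAGCACC, part of the RE1 element that the repressor REST binds, were in 0 of the 30, against 0.317% of all stretches. At shares this low, 0 matches in 30 stretches would be usual for both RE1 and the cyclic AMP response element. Both strands were searched for each motif, and a match is only a match of letters.

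Among the adrenergic receptors, which bind noradrenaline, 2 genes fell, 1 of the Gq-coupled alpha1 and 1 of the Gi-coupled alpha2 type. Adra1b, the alpha1B receptor, had signals of 41.6, 59.3 and 57.2 on contused arrays, all at the floor, against 126, 80.1 and 98.8 on uninjured arrays. The groups did not overlap, and Adra1b was at least 1.62-fold lower after contusion (log2 change -0.70, SE 0.16, adjusted p = 0.0121 in limma). Adra1b met the filter only through its uninjured arrays, so its direction and the lack of overlap were fixed once it was tested. The floor also removed the spread of its contused arrays. With the floor at a signal of 16, which all its arrays exceeded, the change was -0.94 (adjusted p = 0.0125 in limma). It passed in each of the 9 alternatives in which it was tested, at adjusted p-values of 0.00929 to 0.0388. Without any 1 of the uninjured arrays it had too few arrays above the floor to be tested. Adra2c, the alpha2C receptor, had 62.1, 53.5 and 50.1 after contusion, against 75.7, 79.1 and 90.9 in uninjured cord. Only 1 contused array was above the floor, and the groups did not overlap (1.32-fold lower, log2 change -0.40, SE 0.11, adjusted p = 0.0314 in limma). Values set to the floor shrink this change and its SE. With the floor at a signal of 16 the change was -0.57, SE 0.16 (adjusted p = 0.038 in limma). The contused arrays of Adra2c lay at or near the floor (at most 62.1 against 61.6), so its direction was close to fixed once it was tested. Without uninjured array 2 it was not tested. Adra2c passed in 4 of 11 alternatives. These include leave-outs of an uninjured array, in which Adra1b could not be tested, so the counts do not rank the calls. Adra2c lost its call without contused array 1 (adjusted p = 0.0698 in limma), 2 (0.104) or 3 (0.0611) or without uninjured array 3 (0.157). Other settings in which the call was lost include scaling to one trimmed mean (0.0568) and a fit without the intensity trend (0.0552).

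The other adrenergic receptors did not pass. Adra2a, the alpha2A receptor through which clonidine-like drugs act in the cord, was covered by 3 probe sets, of which 2 were tested. S79778mRNA_s_at read 759, 639 and 675 after contusion, against 664, 819 and 829 in uninjured cord, and the groups overlapped (log2 change -0.15, 95% interval -0.46 to 0.15). The other tested probe set, U79031_at, had a change of 0.12 (-0.31 to 0.54). Adra2b, the alpha2B receptor, read 363, 320 and 308 after contusion against 359, 290 and 360 in uninjured cord, a change of -0.02 (-0.35 to 0.30). Adra1a had a change of -0.03 (-0.41 to 0.35). For Adra1d the change was 0.25 (-0.09 to 0.59), on arrays of 410, 479 and 424 after contusion against 357, 316 and 437 in uninjured cord. The Gs-coupled beta receptors had positive changes that did not pass. Adrb3, best known for lipolysis in fat tissue, read 182, 172 and 173 after contusion against 186, 92.9 and 146 in uninjured cord, a change of 0.37 (-0.13 to 0.87). Adrb1, the beta1 receptor of the heart, had a change of 0.15 (-0.21 to 0.51).

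Muscarinic receptors bind acetylcholine, which spinal motor neurons and a group of interneurons release. In limma 0 of 8 tested probe sets were higher and 1 lower, against 7.79% and 9.59% of the whole table. The groups did not overlap for 4 of the 8, 2 above and 2 below, against 34.8% of the whole table. Neither difference was tested. The M2 receptor gene Chrm2, whose Gi-coupled product lies on motor neurons beneath large cholinergic terminals, fell on 1 of its 2 probe sets. AB017655_s_at read 84.4, 75.8 and 81.3 after contusion against 112, 102 and 123 in uninjured cord, without overlap (1.4-fold lower, log2 change -0.48, SE 0.13, adjusted p = 0.0273 in limma). The other probe set, J03025_at, read 146, 149 and 108 after contusion against 181, 105 and 143 in uninjured cord. Its groups overlapped, with a change of -0.07 and an interval of -0.55 to 0.40 that contains the change of the first. The call on AB017655_s_at held in 8 of 13 alternatives, at adjusted p-values of 0.0155 to 0.127 over all of them. It was lost without contused array 2 (adjusted p = 0.112) and without uninjured array 1 (0.0648) or 3 (0.127). It was also lost with the floor at a fixed signal of 16 (0.0516) and with all arrays scaled to one trimmed mean (0.0511).

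Chrm5 and Chrm1, both coupled to Gq, had positive changes that did not pass, and that of Chrm5 was the highest among the 47 tested receptor probe sets. Chrm5 read 362, 406 and 382 after contusion against 300, 221 and 310 in uninjured cord. The contused arrays were all above the uninjured ones (1.4-fold, log2 change 0.48, SE 0.16, adjusted p = 0.0641 in limma). With all arrays scaled to one trimmed mean, Chrm5 passed (adjusted p = 0.048), and the receptor calls were then 1 higher and 1 lower. Chrm1 (AJ006522mRNA_at) read 193, 188 and 202 after contusion against 118, 135 and 175 in uninjured cord, again without overlap (1.38-fold, log2 change 0.46, SE 0.17, adjusted p = 0.0866). It passed without uninjured array 3 (adjusted p = 0.048) and under a higher floor, the pooled 50th percentile (0.0489). Chrm3, the Gq-coupled receptor of smooth muscle and glands, had changes of -0.33 and -0.12 on its 2 probe sets. Chrm4, coupled to Gi, had changes of -0.20 on M16409_at and 0.03 on its other probe set. On M16409_at the groups were only just apart, at 81.1 to 89 after contusion against 89.5 to 108 in uninjured cord (adjusted p = 0.333 in limma).

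**Figure D2:**
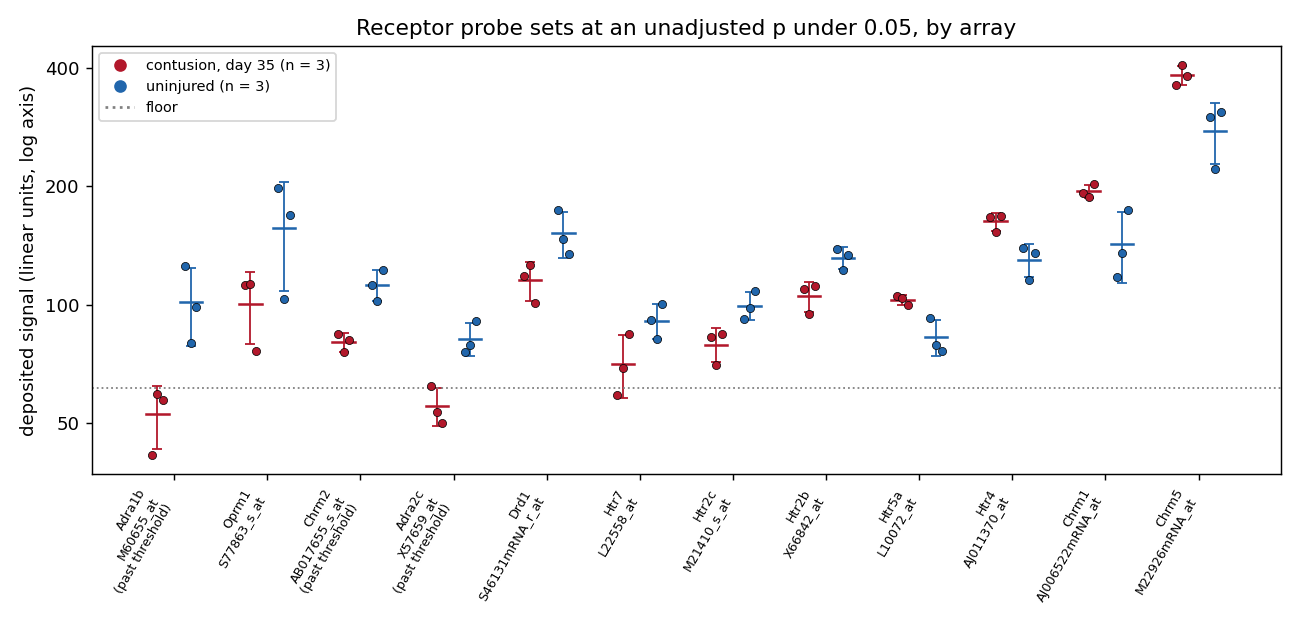
Deposited signal (linear units on a log axis) on each of the 6 arrays for the 12 receptor probe sets at an unadjusted p under 0.05, ordered by log2 change, with the mean as a bar and the SD as error bars (n = 3 per group). The 3 past the adjusted threshold are marked, and all contused values of Adra1b, 2 of the 3 of Adra2c and 1 of Htr7 lie under the dotted floor of 61.6.

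Among the dopamine receptors none of the 6 tested probe sets passed in limma (by unadjusted p under 0.05, 1 was lower, against 16.3% of the whole table). Drd1, coupled to Gs, had 119, 127 and 101 on S46131mRNA_r_at after contusion against 175, 147 and 135 in uninjured cord. These groups did not overlap (log2 change -0.39, SE 0.16, adjusted p = 0.118), while the other tested Drd1 probe set, M35077_s_at, had a change of 0.13 with overlapping groups. Drd5, also coupled to Gs, had a change of -0.20 (-0.48 to 0.09). The Gi-coupled Drd4 read 410, 380 and 339 after contusion against 382, 305 and 304 in uninjured cord (0.19, -0.14 to 0.52). The Drd3 probe set X53944_at varied widely among contused arrays, with 542, 323 and 246 after contusion against 245, 268 and 249 in uninjured cord. Contused array 1 was high and contused array 3 within the uninjured range, and without array 3 the change was 0.72 (adjusted p = 0.0379), against 0.47 (adjusted p = 0.234) with all arrays. The second Drd3 probe set, A17753cds_s_at, read 228, 232 and 253 after contusion against 219, 194 and 228 in uninjured cord. Its groups were only just apart, with a change of 0.16 (adjusted p = 0.508 in limma). Drd2, the Gi-coupled receptor that also serves as autoreceptor of dopamine neurons, was not tested, with 54.6, 48.6 and 54.8 after contusion against 97.5, 58 and 72.1 in uninjured cord and only 2 arrays above the floor.

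The metabotropic glutamate receptors tune the release of glutamate and the response to it. In limma 0 of 5 tested probe sets passed, and 0 had an unadjusted p under 0.05. Grm4, a Gi-coupled presynaptic receptor, read 268, 376 and 361 after contusion against 391, 317 and 372 in uninjured cord, a change of -0.11 (-0.48 to 0.26). Grm2, which is also Gi-coupled and presynaptic, read 111, 114 and 109 after contusion against 119, 127 and 142 in uninjured cord. Its groups did not overlap, but the change of -0.21 (-0.51 to 0.09) did not pass (adjusted p = 0.333). Grm3, the Gi-coupled member found on astrocytes as well as neurons, divided the contused arrays, with 74.5, 77.7 and 153 against 129, 136 and 128 in uninjured cord. Contused arrays 1 and 2 were low and array 3 was the highest of the 6. The change was -0.45 (adjusted p = 0.253) over all arrays and -0.78 (adjusted p = 0.00431) without contused array 3. Under a floor at the pooled 50th percentile the change of Grm3 was 0.03 and did not pass. Grm5, the Gq-coupled member, had a change of -0.09 (-0.52 to 0.34). Grm6, known from the retina, had a change of 0.23 (-0.17 to 0.63). The 3 probe sets of Grm7 and the 1 of Grm8, both presynaptic and Gi-coupled, were not tested, and 3 of these 4 were under the floor on every array. On the exception, D16817_g_at of Grm7, signals were 48, 38.4 and 44.5 after contusion against 54.8, 69.6 and 63.7 in uninjured cord.

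Serotonin receptors made up the largest family, with 17 probe sets for 12 genes, of which 13 were tested. In limma 0 passed, while 2 were higher and 3 were lower judged by unadjusted p under 0.05 (14% and 16.3% of the whole table). Htr1a, the Gi-coupled 5-HT1A receptor, read 983, 860 and 796 after contusion against 779, 767 and 941 in uninjured cord. The groups overlapped, and the change of 0.09 had an interval of -0.22 to 0.39. The other Gi-coupled type 1 genes, Htr1b, Htr1d and Htr1f, had changes of 0.07, 0.12 and 0.17. Htr5a, for which Gi coupling is reported, read 105, 104 and 99.8 after contusion against 92.7, 79.2 and 76.3 in uninjured cord. Here the groups did not overlap (log2 change 0.32, SE 0.13, adjusted p = 0.115).

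The Gq-coupled type 2 receptors, which raise the excitability of motor neurons, had negative changes without passing. Htr2c (M21410_s_at) read 83.1, 70.3 and 84.5 after contusion against 92.1, 98.2 and 108 in uninjured cord, without overlap (log2 change -0.33, SE 0.13, adjusted p = 0.118). Htr2b read 110, 94.7 and 112 after contusion against 139, 123 and 134 in uninjured cord, also without overlap (-0.32, SE 0.14, adjusted p = 0.141). Htr2a (L31546cds_at) had overlapping groups and a change of -0.06 (-0.55 to 0.42). The Gs-coupled receptors went both ways. Htr7 (L22558_at) read 59, 69.3 and 84.6 after contusion against 91.4, 81.7 and 101 in uninjured cord, with 1 contused array at the floor and groups that overlapped (-0.35, SE 0.15, adjusted p = 0.132). Without contused array 3 it passed (-0.48, adjusted p = 0.0438). Htr4 read 167, 153 and 168 on AJ011370_at after contusion against 139, 116 and 135 in uninjured cord, without overlap (0.33, SE 0.14, adjusted p = 0.149). Its other tested probe sets had changes of -0.28 and -0.02, the last with 3 of 6 arrays at the floor. Htr6 had a change of 0.09 (-0.28 to 0.47), with 1 uninjured array at the floor.

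The opioid receptors are Gi-coupled and mediate spinal analgesia. In limma 0 of 6 tested probe sets passed, with 1 lower at an unadjusted p of 0.05 (16.3% of the whole table). Oprm1, the mu receptor at which morphine acts, was covered by 4 probe sets that differed in sign. S79903mRNA_g_at read 515, 520 and 477 after contusion against 387, 385 and 488 in uninjured cord, a change of 0.27 (-0.04 to 0.58). The probe sets S79903mRNA_at and D16349_at had changes of 0.27 and 0.19. In contrast, S77863_s_at read 112, 113 and 76.3 after contusion against 198, 104 and 169 in uninjured cord, a change of -0.62 (-1.16 to -0.07, adjusted p = 0.117). Uninjured array 2 lay within the contused range there, and without it S77863_s_at passed (-0.89, adjusted p = 0.0256). Oprd1, the delta receptor, had a change of -0.36 (-0.90 to 0.18) and Oprk1 (U17995_at), the kappa receptor, one of 0.03 (-0.29 to 0.34).

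Grouped by G protein, the 11 tested probe sets of Gq-coupled receptors had 8 negative and 3 positive changes (median -0.09). Among them 0 were higher and 1, Adra1b, was lower (by unadjusted p, 2 were higher and 3 lower). The 26 of Gi-coupled receptors had 11 negative and 15 positive changes (median 0.05), with 0 higher and 2 lower (by unadjusted p, 1 higher and 3 lower). Gs-coupled receptors had 5 of each sign (median 0.03) and 0 calls in limma (by unadjusted p under 0.05, 1 was higher and 2 were lower). Of the whole table, 7.79% were higher and 9.59% lower (by unadjusted p under 0.05, 14% and 16.3%). The difference between these classes, or from these shares, was not tested, and probe sets of 1 gene share a target.

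Of the 15 receptor genes with more than 1 probe set, 8 had 2 or more tested. The tested probe sets had changes of the same sign for Chrm2, Chrm3 and Drd3 and of both signs for Adra2a, Chrm4, Drd1, Htr4 and Oprm1. Of these 8 only Chrm2 had a call, on 1 of its 2 probe sets. On arrays of this kind a name ending in _s_at marks probes that can match more than 1 transcript. The files do not give the probe sequences, and differences between probe sets of a gene were not tested.

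**Figure D3:**
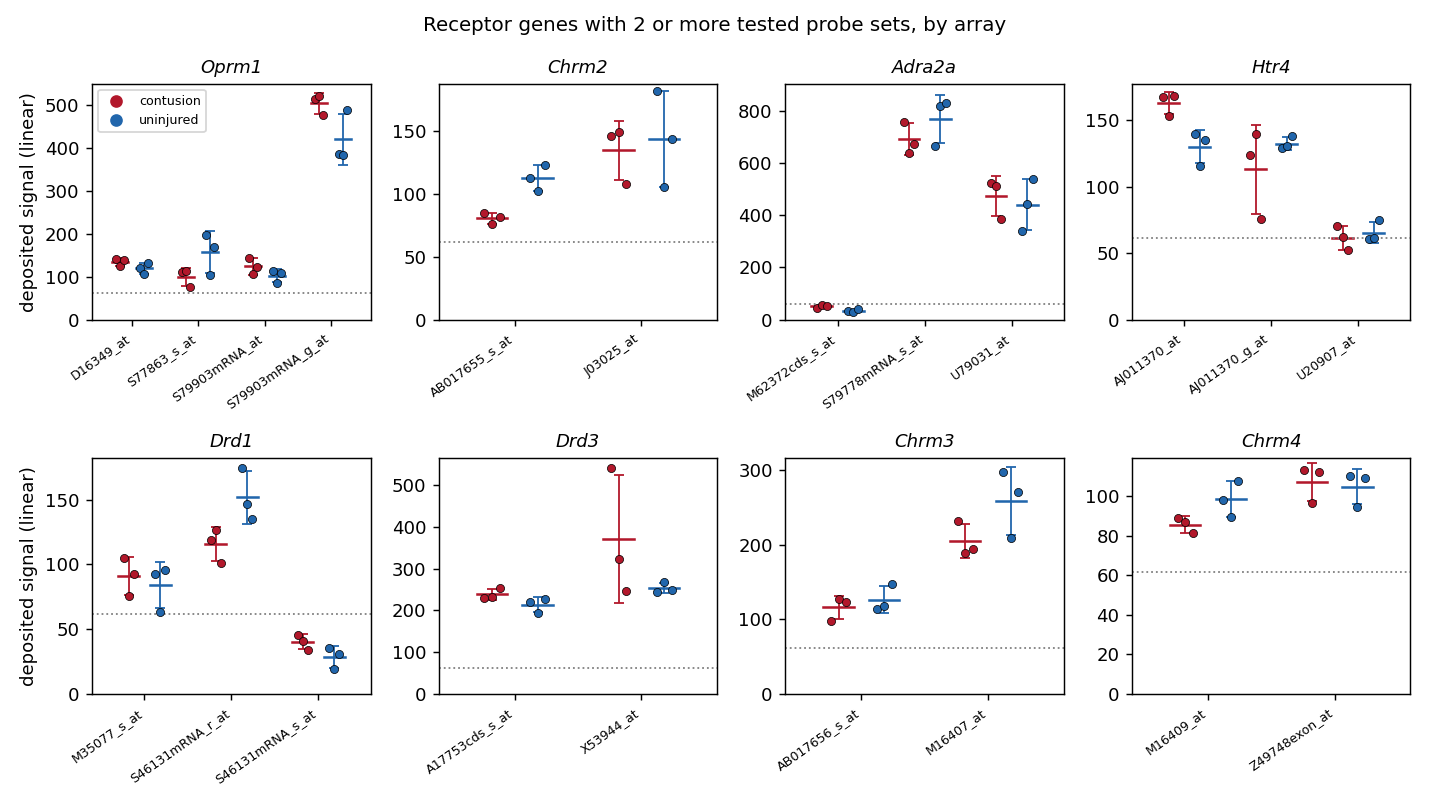
Deposited signal (linear axis from 0) on each array for the 8 receptor genes with 2 or more tested probe sets, with all probe sets of each gene shown, contused left of uninjured, bars at the mean and error bars of 1 SD (n = 3 per group). The dotted line is the floor of 61.6, and Oprm1 shows S77863_s_at lower and S79903mRNA_g_at higher in the contused means.

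The 14 receptor probe sets that were not tested were dim: 10 were under the floor on all arrays and 4 were above it on 1 or 2. Besides Drd2, Grm7, Grm8 and Htr5b, which had no tested probe set, they are further probe sets of genes described above. Htr5b, close to Htr5a in sequence, read 61.5, 72.7 and 56 after contusion against 53.2, 55.2 and 52.2 in uninjured cord. The untested probe set of Adra2a, M62372cds_s_at, read 43.8, 55.7 and 53.2 after contusion against 32.1, 28.3 and 39.2 in uninjured cord. Its contused arrays were above its uninjured arrays, all of them under the floor, so no fold is given.

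Among genes that act with these receptors, some passed the threshold in each direction. In these lists each gene is represented by 1 tested probe set, that of the highest mean signal. Over all 3955 genes 7% were higher and 9.91% lower, and no list was tested against these shares. Of 30 G protein subunits and effector genes 2 were higher and 3 lower, near the shares of all genes, with a median log2 change of -0.01. Gnai1, a Gi alpha subunit of neurons and other cells, read 208, 199 and 216 after contusion against 381, 455 and 369 in uninjured cord, and fell 1.93-fold (log2 change -0.95, SE 0.14, adjusted p = 0.00124). Gnai2, the Gi alpha subunit abundant in leukocytes, had the opposite direction, with 1390, 1310 and 1323 after contusion against 999, 1061 and 919 in uninjured cord (1.35-fold higher, adjusted p = 0.0244). The groups of both genes lay apart. Gnai2 no longer passed when contused array 1 (adjusted p = 0.0651) or 2 (0.0613), or uninjured array 1 (0.0676) or 3 (0.133), was left out.

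Plcb1, a phospholipase C that Gq activates, fell 1.55-fold, with means of 126 ± 3.72 after contusion and 196 ± 19.3 in uninjured cord (signal, SD, n = 3 each; limma adjusted p = 0.0114, and 0.0634 without uninjured array 3). Adcy4, an adenylate cyclase that makes cyclic AMP, was at least 1.63-fold higher, with all uninjured arrays at the floor (101 ± 3.58 against 54.7 ± 5.65; limma adjusted p = 0.00145). Adcy4 met the filter only through its contused arrays, which fixed the direction of its change. Without 1 contused array it had too few arrays above the floor to be tested. Gng8, a gamma subunit, was 1.38-fold lower (limma adjusted p = 0.045), a call that was lost without contused array 2 (0.128) or 3 (0.091), without any of uninjured arrays 1, 2 and 3 (0.0668, 0.0947 and 0.17), with quantile normalization (0.0686) and with scaling to one trimmed mean (0.066).

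Of 18 receptor kinase, arrestin and RGS genes, whose products end or damp the signal, 1 was higher and 0 lower (median 0.06). This was Rgs1, an accelerator of G protein shut-off known from lymphocytes and other leukocytes. It read 120, 128 and 119 after contusion against 44.8, 36 and 54 in uninjured cord, at least 1.99-fold higher with every uninjured array at the floor (adjusted p = 0.00027 in limma). Like Adcy4, it met the filter only through its contused arrays, which fixed its direction, and it could not be tested without 1 of them.

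Of 19 genes for the synthesis, transport and breakdown of the transmitters and for opioid precursors, 0 were higher and 4 lower (median -0.10). Penk, the precursor of the enkephalins that act on delta and mu receptors, read 344, 293 and 352 after contusion against 681, 719 and 732 in uninjured cord. It fell 2.16-fold (log2 change -1.11, SE 0.13, adjusted p = 0.000328), beside receptor changes of -0.36 for Oprd1 and of -0.62 to 0.27 for the probe sets of Oprm1. Ache, the enzyme that splits acetylcholine, fell 2.15-fold, with 154 ± 12.3 after contusion and 331 ± 21.2 in uninjured cord (signal, SD, n = 3 each; limma adjusted p = 0.00048). Gls2, a glutaminase, fell 1.68-fold (limma adjusted p = 0.00281, and 0.383 under a floor at the 50th percentile). The fourth was Slc18a3, the vesicular acetylcholine transporter, named here after its value had been seen (1.49-fold lower, limma adjusted p = 0.0216, and 0.0736 without contused array 2 or 0.118 without uninjured array 3).

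Of 26 channel-forming receptors for the same transmitters 1 was higher and 2 lower (median -0.07). Gria2, the AMPA receptor subunit that blocks calcium entry, read 73.6, 61.6 and 106 after contusion against 157, 162 and 165 in uninjured cord and fell 2.06-fold (adjusted p = 0.00387 in limma). Grik4, a kainate receptor subunit, fell 1.47-fold (limma adjusted p = 0.0176, and 0.0825 without uninjured array 3). Chrnb2, the beta2 nicotinic subunit, was 1.45-fold higher (limma adjusted p = 0.0492). Its call was lost without any contused array (0.151, 0.0849 and 0.0526 for arrays 1, 2 and 3), without uninjured array 1 (0.14) or 2 (0.145), with no filter on dim probe sets (0.0664) and with the floor at a fixed signal of 16 (0.0537).

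**Figure D4:**
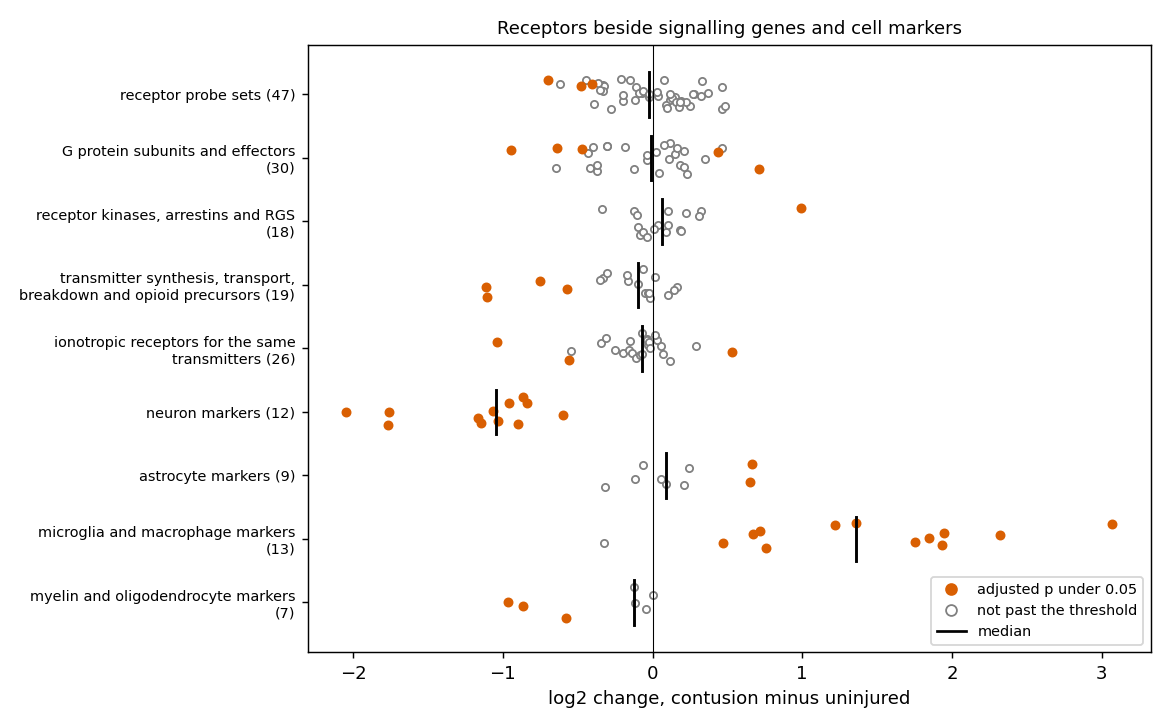
Log2 change (contusion minus uninjured) of the 47 tested receptor probe sets in the top row, of the genes of 4 signalling lists and of 4 lists of cell markers, 1 point per probe set or gene, with the number tested in brackets and the median as a vertical bar. Filled points passed an adjusted p of 0.05. The receptors lie between -0.70 and 0.48, while all 12 neuron markers are filled and left of 0 and 12 of 13 microglia and macrophage markers are filled and right of 0. For genes above the floor in 1 group only, the filter fixed the direction.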

How the data were processed

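Total RNA of 6 spinal cord samples was measured on one-colour arrays with 8799 probe sets. The authors deposited 1 intensity per probe set and array on a linear scale; the sources used here do not state how it was summarised, background-corrected or scaled. Trimmed means (2% off each end) ran from 209 to 228 over the arrays, within the 10% set as the limit for using values as deposited. Gene symbols were taken from the array's annotation, updated through gene identifiers to GRCr8 symbols.

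The 59 control probe sets were left out. Values were floored at a signal of 61.6, log2-transformed (floor 5.94) and compared by linear models (limma 3.58.1, R 4.3.3; eBayes with intensity trend), two-sided, contusion minus uninjured, 3 arrays per group and 4 residual degrees of freedom, which limit the precision. Adjusted p-values are Benjamini-Hochberg values over all 6705 probe sets tested. No exact permutation test was run, since with 3 arrays in each group its smallest p is 0.1. Folds given as "at least" set the mean log2 value of one group against the floor, at which all arrays of the other lay. They leave out sampling error, and the filter fixed the direction of such changes. The procedure was tested on simulated data. Alternatives were other floors, filters, scalings, no trend, a replicate block and leaving out each array.

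Array values are given for receptor probe sets at an unadjusted p of 0.05, for the one with the highest mean signal in each family and for any above the floor in 1 group only; others with array values, such as Drd2, Drd3, Grm2 and Grm3, were picked after their values were seen. Of each signalling list up to 3 genes per direction with the smallest p are named, and of each marker list the 2 with the highest mean signal. The receptors and lists were chosen with earlier results of these data known. Plots used Python 3.11.15, pandas 2.3.3 and matplotlib 3.10.9.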

Additional observations from a re-analysis of the deposited data

How the results depend on the processing

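Over the 14 alternatives, 0 to 1 receptor probe sets were higher and 0 to 4 lower, against 0 and 3 as reported. Under a floor at the 50th percentile, 1 receptor (Chrm1) was higher and 0 lower, with Adra1b, Adra2c and Chrm2 AB017655_s_at no longer tested, and 2 signalling genes were higher. With all 6 arrays required above the floor, 1 receptor (Chrm2) was lower and 2 signalling genes were higher. With all arrays scaled to one trimmed mean, 1 was higher (Chrm5) and 1 lower (Adra1b). The replicate block gave 0 higher and 2 lower (Adra1b and Chrm2); the adjusted p was then 0.0592 for Adra2c, 0.0715 for Gng8 and 0.0545 for Chrnb2. Same-numbered arrays had correlations of their deviations of 0.0415, 0.222 and -0.244, and only those numbered 2 correlated best with each other, so the numbers are not shown to pair the samples.

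With 1 array left out, receptor counts ran from 0 to 1 higher and from 0 to 4 lower. Whole-table counts ran from 288 to 458 higher and from 371 to 783 lower, against 522 and 643. Signalling list genes ran from 0 to 3 higher and from 5 to 10 lower, against 4 and 9. Marker genes ran from 10 to 16 higher and from 14 to 15 lower, against 17 and 15. Receptor counts were 0 lower without uninjured array 3 and 1 lower without contused array 2 or uninjured array 1. The lowest whole-table counts were without contused array 2 (289 higher), uninjured array 2 (428 lower) and uninjured array 3 (288 higher and 371 lower), and that of higher markers without contused array 2 (10). Without 1 contused array, Adcy4 and Rgs1 no longer met the filter. No tested receptor call reversed its direction. Signals close to the floor limit what the dim receptors can show, and 14 of 61 probe sets could not be tested.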
